A study of Mus musculus with 2 samples.

Results

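The extracellular matrix of the injured mouse kidney was examined through 10 genes for matricellular and elastic fibre proteins, Fn1, Postn, Tnc, Sparc, Thbs1, Ccn1, Ccn2, Eln, Lox and Lum, of the 32285 genes counted. They were chosen by name, and all 10 were counted in both libraries. Kidneys had been taken on day 14 after ischaemia and reperfusion of 1 kidney, in mice that then received 4 tamoxifen injections, dissociated to single cells and profiled by droplet sequencing of transcript 3′ ends. The control library came from mice of genotype Cre-, and the haplodeficient library from Cdh5-CreERT2; Phd3f/+ mice, in which a tamoxifen-inducible Cre driven by the promoter of the endothelial cadherin gene Cdh5 acts on 1 floxed allele of Phd3 (gene symbol Egln3), an oxygen-dependent prolyl hydroxylase. Injury, tamoxifen, tissue and batch 1 were shared by both, the labels do not say whether Cre- animals had a floxed allele, and the number, sex and age of the animals are not given in the sources used here. The labels mention a cell hashing library, so a library may join several animals, and animals could not be separated with the files used here. With 1 library for each group, differences between the libraries have no replicate check and were not tested, and every interval is a 95% interval for counting error only.

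Matricellular proteins are secreted into the matrix but act mainly as signals that alter adhesion, migration and growth factor activity, and most are low in healthy kidney and high after injury. Fibronectin (Fn1), periostin (Postn) and tenascin-C (Tnc) bind integrins and mark provisional and fibrotic matrix, Sparc binds collagen, and thrombospondin-1 (Thbs1) can activate latent TGF-beta. Ccn1 (CYR61) and Ccn2 (CTGF) are integrin ligands whose genes are targets of YAP and TEAD factors. Elastin (Eln) is cross-linked into elastic fibres by lysyl oxidase (Lox), and lumican (Lum) is a small proteoglycan that spaces collagen fibrils.

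The control library held 134190236 UMIs (unique molecular identifiers, counted molecules) and the haplodeficient library 114668145 UMIs. Barcodes with 500 or more UMIs, 200 or more genes and no more than 50% of UMIs from mitochondrial genes numbered 9452 and 10026, and 8737 and 9222 were left after removal of likely doublets. Cells had a median of 8762 and 5471.5 UMIs and of 10.2% and 2.69% mitochondrial UMIs, so depth and mitochondrial share differed between the libraries. Of the passing barcodes, 28 occurred in both libraries. Among the cells kept, 1 haplodeficient fibroblast-like cell and 1 control mural-like cell carried such a barcode. Fibroblast-like cells numbered 110 (control) and 119 (haplodeficient), mural-like cells (pericytes, smooth muscle and renin cells) 192 and 272. All 12 fibroblast markers were present in the fibroblast-like cells, with Pdgfra at 662 and 427 CPM (UMIs of a gene scaled to the same total of summed UMIs in each class). All 13 mural markers were present in mural-like cells, with Myh11 at 2522 and 2498 CPM. In endothelial-like cells, where the Cre acts, Egln3 levels were 28.3 CPM (control, 21.3 to 36.8) and 20.7 CPM (haplodeficient, 16.4 to 25.8). A tag at the transcript 3′ end does not show whether a floxed exon is present.

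Lox was left out of a search for promoter windows. A window before the annotated RefSeq start (GRCm38.p6) was found for 4 of the 10 genes, and for 3 of them it was clear of annotated exons. These 3 windows are shown. As described below, Ccn1 was highest in mural-like and some tubule-like cells, and Tnc and Postn were higher in fibroblast-like than in tubule-like cells. Postn was low everywhere and entered no comparison between classes. Each line gives the 250 bases 5′ of the start on the gene's strand, from chr3:145649986-145650235 (minus strand) for Ccn1, chr4:64047016-64047265 (minus strand) for Tnc and chr3:54360857-54361106 (plus strand) for Postn. Capitals mark a match to the TEAD core motif GGAATG on either strand.
Ccn1: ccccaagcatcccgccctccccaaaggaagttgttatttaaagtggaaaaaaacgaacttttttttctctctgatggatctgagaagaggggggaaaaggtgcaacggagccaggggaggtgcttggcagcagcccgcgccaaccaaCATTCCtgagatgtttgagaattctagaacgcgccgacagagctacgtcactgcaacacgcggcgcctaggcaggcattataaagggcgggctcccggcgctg
Tnc: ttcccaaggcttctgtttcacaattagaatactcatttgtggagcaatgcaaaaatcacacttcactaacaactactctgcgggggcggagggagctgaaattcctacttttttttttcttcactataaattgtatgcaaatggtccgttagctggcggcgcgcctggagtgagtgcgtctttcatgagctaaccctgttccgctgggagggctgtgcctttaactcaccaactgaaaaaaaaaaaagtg
Postn: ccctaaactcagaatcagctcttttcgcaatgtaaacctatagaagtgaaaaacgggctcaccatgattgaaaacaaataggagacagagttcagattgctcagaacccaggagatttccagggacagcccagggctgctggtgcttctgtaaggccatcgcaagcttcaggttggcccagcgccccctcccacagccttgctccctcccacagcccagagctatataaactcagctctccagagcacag
The TEAD motif occurred in the Ccn1 window only among these 3, at bases -103 to -98, on the strand opposite the one printed, counting the base next to the start as -1. The same motif was in 12.6% of 32536 windows of this length. The AP-1 motif TGANTCA (6.73% of windows) and the CArG box of serum response factor (1.48% of windows) were in none of the 3. A match or its absence describes these letters and not binding.

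Cells were assigned to marker-defined classes without using the 10 genes, and 14 named classes and 6 unnamed clusters had at least 50 cells in each library. One of the unnamed populations, called the Wt1-led cluster here, joins a cluster led by Tagln, Tnc, Cdh11 and Igfbp2 with a small one led by cell cycle genes. It held 94 and 288 cells and had Wt1 at 266 and 240 CPM, Pax8 at 297 and 276 CPM and Cldn1 at 235 and 156 CPM, and no class name was given. Fibroblast-like cells were 1.26% and 1.29% of cells but held 92.9% and 94.9% of all Lum UMIs and 34.4% and 32.3% of all Lox UMIs. They held only 0.432% and 1.12% of all Ccn1 UMIs. The 10 genes thus ranged from 1 nearly restricted to this class to 1 spread over most of the kidney.

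**Figure D1:**
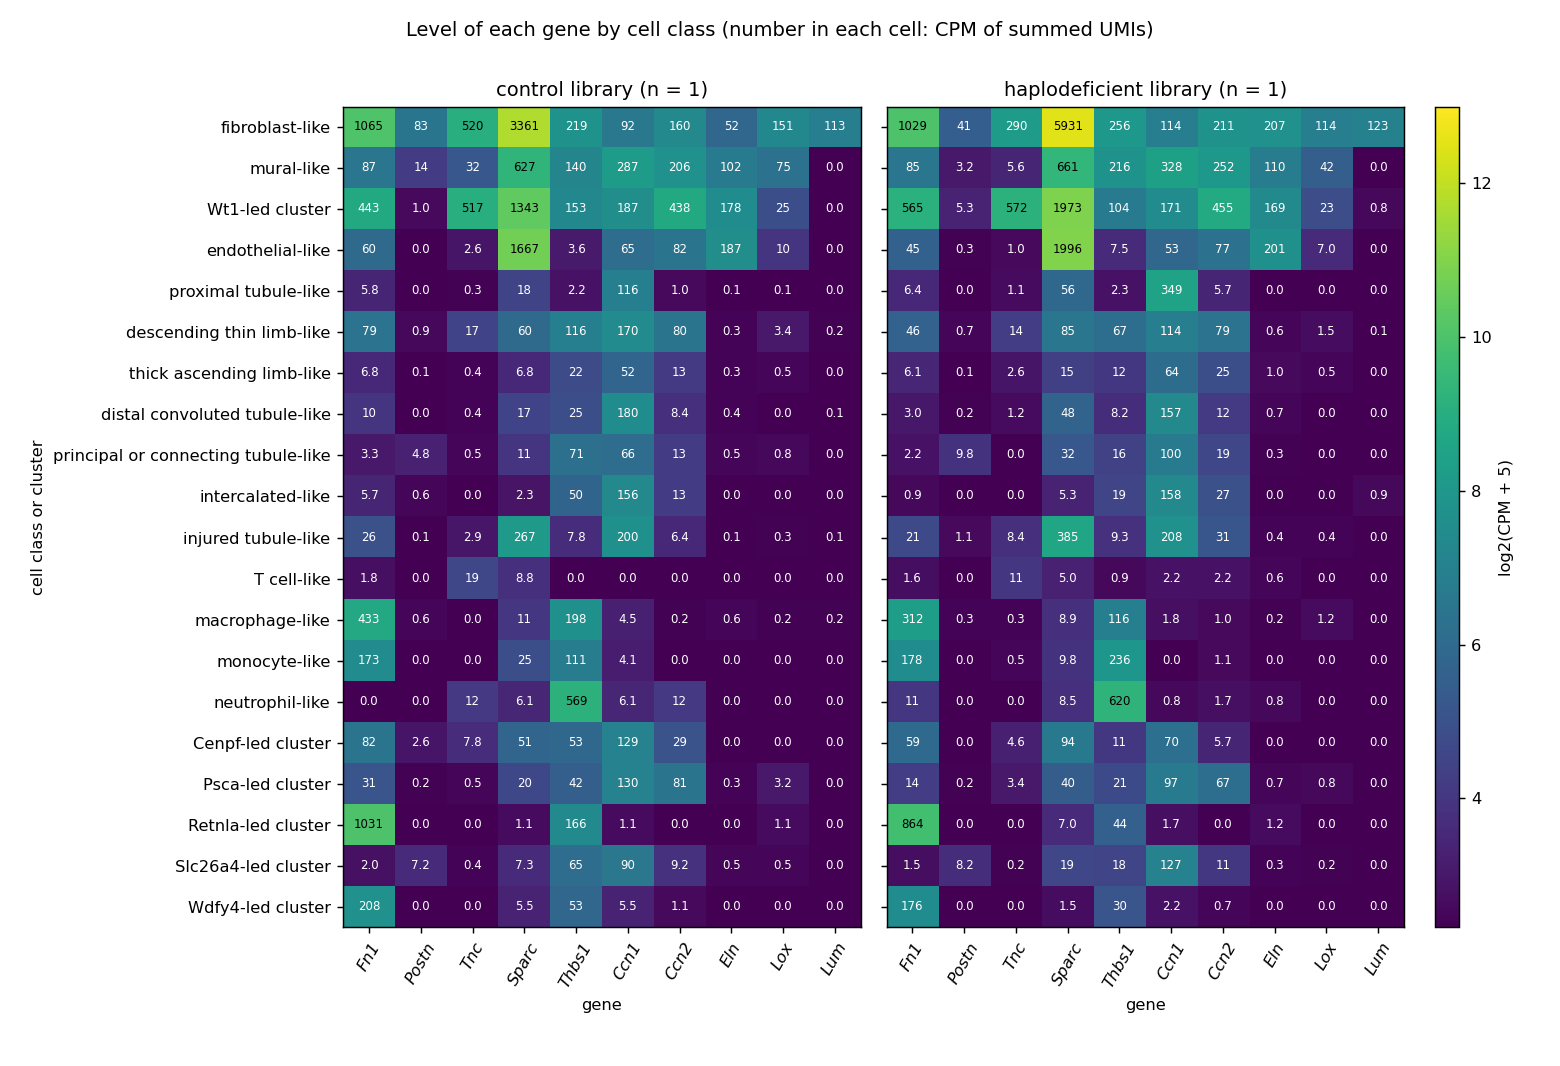
Level of the 10 genes (columns) in 20 cell classes or clusters (rows) in the control (left) and haplodeficient (right) library, 1 library each. Numbers are CPM of summed UMIs and the colour is log2(CPM + 5). Lum is above 100 CPM in fibroblast-like cells and below 1 CPM in every other row, while Ccn1 is above 50 CPM in all 7 tubule-like classes.

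Fibronectin was shared by fibroblast-like and macrophage-like cells. Fn1 (chr1:71585520-71653200, minus strand) stood at 1065 CPM (983 to 1153) in control and 1029 CPM (965 to 1098) in haplodeficient fibroblast-like cells. An unnamed cluster led by Retnla came next, at 1031 CPM and 864 CPM, and in the control library its interval overlapped that of the fibroblast-like cells. The Wt1-led cluster (443 and 565 CPM) and macrophage-like cells (433 and 312 CPM) followed. Because macrophage-like cells were numerous, they held 34.8% and 31.5% of all Fn1 UMIs, against 10.4% and 10.2% in fibroblast-like cells. Mural-like cells were low, at 86.9 CPM and 85.4 CPM. Fibroblast-like cells thus exceeded mural-like cells 12.3-fold in the control and 12.1-fold in the haplodeficient library.

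Tenascin-C, which is transient in wounds, was a gene of fibroblast-like cells and of the Wt1-led cluster. Tnc (chr4:63959785-64047015, minus strand) was at 520 CPM (462 to 582) in control fibroblast-like cells and 290 CPM (256 to 327) in haplodeficient ones. The Wt1-led cluster had 517 CPM (474 to 562) and 572 CPM (549 to 597). Their intervals overlapped in the control library, and the Wt1-led cluster was higher in the haplodeficient library. Mural-like cells had 32.0 CPM and 5.64 CPM, from 21 and 7 UMIs. Free RNA accounted for an estimated 0.948% and 22.8% of these. Among leukocytes, macrophage-like cells had 0 and 3 UMIs and the Retnla-led cluster none, whereas T-cell-like cells had 19.4 and 11.2 CPM, of which free RNA was an estimated 1.05% and 5.43%. Of the 2744 Tnc UMIs in haplodeficient cells 79.1% were in the Wt1-led cluster, and of the 1048 in control cells 51.8%.

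Periostin, an integrin ligand of activated fibroblasts, was low everywhere. Postn (chr3:54361109-54391037, plus strand) reached 83.4 CPM (61.5 to 111) in control and 40.6 CPM (28.6 to 56.0) in haplodeficient fibroblast-like cells, from 48 and 37 UMIs, and these were its highest classes. Mural-like cells had 9 and 4 UMIs. Principal or connecting tubule-like cells had 4.85 CPM and 9.81 CPM, and a cluster led by Slc26a4 had 7.17 CPM and 8.15 CPM. Postn missed the minimum of a mean of 50 CPM in every comparison between classes, so it entered none.

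Sparc, a collagen-binding glycoprotein, was high in fibroblast-like, mural-like and endothelial-like cells and in the unnamed Wt1-led cluster. Sparc (chr11:55394500-55423183, minus strand) was at 3361 CPM (3213 to 3515) in control and 5931 CPM (5774 to 6091) in haplodeficient fibroblast-like cells. Endothelial-like cells had 1667 CPM and 1996 CPM, the Wt1-led cluster 1343 CPM and 1973 CPM, and mural-like cells 627 CPM and 661 CPM. Among tubule-like classes the injured tubule-like cells, which carry Havcr1, were highest at 267 CPM and 385 CPM, and the other 6 lay between 2.29 CPM and 85.1 CPM. In the injured tubule-like cells the 13 mural markers summed to 82.3 and 73.4 CPM, with Rgs5 at 21.9 and 5.96 CPM and Tagln at 9.57 and 12.3 CPM. The 12 fibroblast markers summed to 13.8 and 9.81 CPM there, with Pdgfra at 0.190 CPM and 0 UMIs. The order of classes from fibroblast-like down to injured tubule-like cells was the same in both libraries. The intervals of endothelial-like cells and the Wt1-led cluster overlapped in the haplodeficient library.

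Thrombospondin-1 was highest in neutrophil-like cells. Thbs1 (chr2:118111876-118127133, plus strand) was at 569 CPM (460 to 697) in control and 620 CPM (576 to 666) in haplodeficient neutrophil-like cells. Fibroblast-like cells followed at 219 CPM (182 to 261) and 256 CPM (224 to 291). Mural-like cells had 140 CPM (113 to 172) and 216 CPM (191 to 243), so that fibroblast-like cells were 1.56-fold and 1.18-fold higher. Macrophage-like cells had 198 CPM and 116 CPM. Endothelial-like cells had 3.60 and 7.50 CPM.

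Ccn1 and Ccn2, related CCN proteins, had different distributions. Ccn1 (chr3:145646976-145649981, minus strand) was at 287 CPM (247 to 331) and 328 CPM (297 to 361) in mural-like cells, and at 92.1 CPM (69.0 to 120) and 114 CPM (93.3 to 138) in fibroblast-like cells. Mural-like cells thus exceeded fibroblast-like cells 3.11-fold and 2.87-fold, and Ccn1 was the only one of the 10 called higher in mural-like cells. Tubule-like cells, taken as the mean over 7 classes, had 134 CPM and 164 CPM. The 7 classes held 80.8% and 63.6% of all Ccn1 UMIs (12278 and 9269). Outside these classes, the unnamed Slc26a4-led cluster held 763 and 1091 of them and the unnamed Psca-led cluster 802 and 581. Free RNA accounted for an estimated 4.74% and 2.44% of the Ccn1 UMIs in fibroblast-like cells, the largest such shares among the 10 genes in that class.

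Ccn2 (chr10:24595442-24598683, plus strand) was highest in the Wt1-led cluster, at 438 CPM (399 to 480) and 455 CPM (434 to 477). Mural-like cells had 206 CPM and 252 CPM and fibroblast-like cells 160 CPM and 211 CPM, with overlapping intervals in each library. The mean of the tubule-like classes was 19.3 CPM and 28.4 CPM, of which descending thin limb-like cells stood out at 80.4 CPM and 79.4 CPM. Within endothelial-like cells Ccn2 was concentrated in a cluster led by Cldn5, Ptn and Aqp1, with 215 CPM (180 to 253) and 237 CPM (207 to 269), against 22.1 CPM and 25.7 CPM in the largest endothelial cluster, led by Plvap.

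The elastic fibre genes Eln and Lox were spread over fibroblast-like, mural-like and endothelial-like cells and the unnamed Wt1-led cluster. Eln (chr5:134702593-134747323, minus strand) was at 187 CPM (168 to 207) and 201 CPM (187 to 216) in endothelial-like cells, 178 CPM and 169 CPM in the Wt1-led cluster, and 102 CPM (79.2 to 130) and 110 CPM (92.6 to 130) in mural-like cells. Fibroblast-like cells had 52.1 CPM (control, 35.2 to 74.4) and 207 CPM (haplodeficient, 179 to 239). Only endothelial-like, Wt1-led and mural-like cells were above them in the former and no class in the latter, where their interval overlapped the endothelial one. In the endothelial cluster led by Stmn2, Fbln5 and Fbln2 (57 and 76 cells) Eln reached 464 CPM (407 to 525) and 1030 CPM (946 to 1119). A single haplodeficient cell held 236 of its 559 UMIs, and without the top cell of each library the levels were 430 and 608 CPM. In all endothelial-like cells they were then 177 and 140 CPM. No tubule-like class exceeded 1.01 CPM. Lox (chr18:52516067-52529867, minus strand), the cross-linking enzyme, followed a strict order in both libraries, with 151 and 114 CPM in fibroblast-like cells, 74.7 and 41.9 CPM in mural-like cells, 24.7 and 23.5 CPM in the Wt1-led cluster and 10.3 and 6.99 CPM in endothelial-like cells, and the intervals of neighbours in that order did not overlap.

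Lumican was close to exclusive to fibroblast-like cells among the classes compared. Lum (chr10:97565128-97572703, plus strand) was at 113 CPM (87.2 to 144) and 123 CPM (101 to 148) there, from 65 and 112 UMIs. Mural-like cells had 0 UMIs in both libraries, where 3 UMIs would have been 4.57 CPM and 2.42 CPM, so fibroblast-like cells were at least 24.7-fold and at least 50.9-fold higher. The highest other class was below 1 CPM in either library. Even among fibroblast-like cells Lum was in few: 11 of 110 control cells and 17 of 119 haplodeficient cells had a Lum UMI, and a single cell held 35 of the 65 control UMIs and another 44 of the 112 haplodeficient UMIs.

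For the formal comparison of fibroblast-like, mural-like and tubule-like cells, a gene was called when its level differed at least 2-fold, after adding 5 CPM, with non-overlapping intervals in the same direction in both libraries. Between fibroblast-like and mural-like cells 9 of the 10 genes met the minimum level. Of these, 4 were higher in fibroblast-like cells (Fn1, Tnc, Sparc, Lum), 1 was higher in mural-like cells (Ccn1), and 4 were not called (Thbs1, Ccn2, Eln, Lox). The same rule called 25.7% of all 3532 eligible genes, 13.3% as higher in fibroblast-like and 12.4% as higher in mural-like cells. For Sparc the log2 ratios were 2.41 (control) and 3.16 (haplodeficient). For Lox they were 0.97 and 1.35, the first just short of the required size. Eln changed order, with log2 ratios of -0.91 (control) and 0.88 (haplodeficient).

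Against tubule-like cells 8 of 9 eligible genes were higher in fibroblast-like cells and none was lower, beside 13.6% higher and 15.8% lower among all 3703 eligible genes (29.4% in all). The exception was Ccn1, with log2 ratios of -0.52 and -0.51. Mural-like cells exceeded tubule-like cells in 5 of 6 eligible genes (Fn1, Sparc, Thbs1, Ccn2, Eln), beside 14.5% of all 3670 genes, and none was lower, beside 15.6% (30.1% called in all). Ccn1 had log2 ratios of 1.07 and 0.98 there, the second of which missed the required size. Median log2 ratios over the eligible members were 0.97 and 1.35 for fibroblast-like over mural-like cells, 4.54 and 4.64 for fibroblast-like over tubule-like cells and 2.51 and 2.88 for mural-like over tubule-like cells, against medians between -0.14 and 0.02 over all eligible genes. Eligibility used the mean over both classes compared. Among eligible genes only Sparc (54.5 and 89.6 CPM) and Ccn1 (134 and 164 CPM) reached the minimum level in tubule-like cells. The others passed through their fibroblast-like or mural-like level and could only be higher there, as could Tnc and Lum against mural-like cells. The counts and medians are thus partly set by the eligibility rule. Classes of 1 library share its preparation, and the 10 genes were picked as matrix genes, so their direction is not independent evidence. When each cell was classed by its own markers, 2 rather than 4 genes were called higher in fibroblast-like than in mural-like cells, and Ccn1 was no longer called (mean log2 ratio -1.01).

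**Figure D2:**
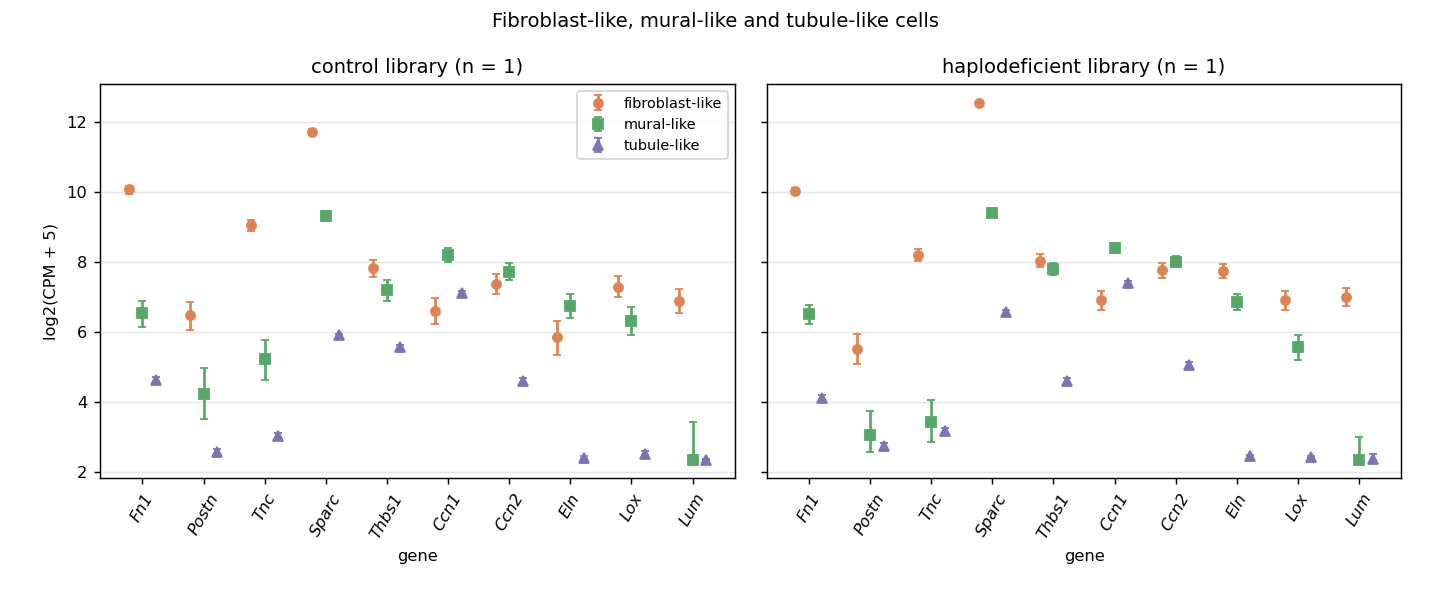
Levels of the 10 genes in fibroblast-like (circles), mural-like (squares) and tubule-like cells (triangles, mean of 7 classes) on a log2(CPM + 5) axis, in the control (left) and haplodeficient (right) library. Bars are 95% counting intervals. Sparc is highest in fibroblast-like cells in both panels, Ccn1 is highest in mural-like cells, and the Eln points of fibroblast-like and mural-like cells change places between the panels.

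Shares of cells with a UMI after thinning each cell to 1000 UMIs gave the same contrast for the abundant genes. Sparc was detected in 82.7% (control) and 87.3% (haplodeficient) of fibroblast-like cells and in 38.3% and 49.6% of mural-like cells. Fn1 was detected in 49.1% and 45.8% of fibroblast-like cells against 5.46% and 5.86% of mural-like cells, and in T-cell-like cells in 0 of 175, which allows up to 1.71%, and in 0.294%. Tnc was detected in 22 of 110 and 20 of 118 fibroblast-like cells, 2.19% and 0.781% of mural-like cells, and 1.71% and 1.08% of T-cell-like cells. The intervals of the mural-like and T-cell-like Tnc shares overlapped in each library, and macrophage-like cells had Tnc in 0 of 737 and 0 of 1138 cells, which allows up to 0.407% and 0.264%. Before thinning, the median of the cells used was 4592.5 and 6411 UMIs among fibroblast-like cells, 3268 and 4251.5 UMIs among mural-like cells and 2718 and 2613 UMIs among T-cell-like cells. For these 3 genes the intervals of fibroblast-like and mural-like shares did not overlap in either library. Without thinning, 6 genes met that condition.

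Other genes of the same families were given by lists. Of 20 further elastic fibre genes 13 were eligible, and 11 were higher in fibroblast-like than in mural-like cells. They included Mfap5, Fbln1 and Ltbp2, which were at 266, 222 and 130 CPM in control fibroblast-like cells and at 0 UMIs in control mural-like cells. Genes this low in mural-like cells were eligible through their fibroblast-like level and could only be higher there. Ltbp1, which tethers latent TGF-beta, was the 1 elastic fibre gene higher in mural-like cells (584 against 144 CPM in the control and 503 against 94.4 CPM in the haplodeficient library). Among 9 small leucine-rich proteoglycans, the family of Lum, 4 were eligible. Dcn (1390 and 1619 CPM in fibroblast-like cells, 0 UMIs in mural-like cells) and Bgn were higher in fibroblast-like cells, and Aspn was higher in mural-like cells. Among 17 other matricellular genes 3 were eligible, with Smoc2 and Thbs2 higher in fibroblast-like cells and Sparcl1, a relative of Sparc, higher in mural-like cells at 2911 and 3989 CPM against 428 and 498 CPM.

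Receptors and signalling targets were counted by the same rule, which called 13.3% of all eligible genes higher in fibroblast-like and 12.4% higher in mural-like cells, and no list was tested against all genes. Of 9 eligible receptor genes 3 were higher in fibroblast-like cells (Lrp1, Itgb5, Cd47) and 2 in mural-like cells (Itga4, Itga8). Of 10 eligible targets of YAP and TEAD, the list closest to Ccn1 and Ccn2, 3 were higher in fibroblast-like cells (Ccdc80, Myof, Gadd45a) and 3 in mural-like cells (Crim1, Arhgef17, F3). Of 14 eligible immediate early and dissociation genes none was higher in fibroblast-like cells, and 3 were higher in mural-like cells (Atf3, Nr4a1, Btg2). Ccn1 is itself an immediate early gene. The part of dissociation in its mural-like level was not tested.

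Within fibroblast-like cells 3 subclusters differed in these genes. They were led by Pi16 (42 control and 84 haplodeficient cells), Kitl (42 and 11 cells) and Erc2 (26 and 24 cells), and none met the requirement for a subtype name. Kitl itself was at 302 CPM in the control Kitl-led cells and 11.5 CPM, 1 UMI, in the 11 haplodeficient ones. Pi16, a gene of fibroblasts around vessels, was at 144 and 168 CPM in the first, and 38.2% and 70.6% of the class were Pi16-led. Lum was highest in Pi16-led cells, at 226 CPM (171 to 292) and 149 CPM (122 to 180), from 58 of 65 and 105 of 112 UMIs. Sparc was also highest there, at 4399 and 6994 CPM, against 3143 and 3627 CPM in Kitl-led and 1107 and 1243 CPM in Erc2-led cells. Ccn2 was at 249 and 267 CPM in Pi16-led cells and at 108 and 11.5 CPM in Kitl-led cells. In the control library Tnc was higher in Kitl-led cells, at 654 CPM (552 to 769), than in Pi16-led cells, at 405 CPM (331 to 491), and in the haplodeficient library it was lower in Kitl-led cells, at 138 CPM (71.2 to 241) from 12 UMIs against 323 CPM (282 to 367).

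Mural-like subclusters differed as well. The Txndc11-led subcluster (76 and 109 cells) met no rule for a subtype name. The Ifitm1-led subcluster (28 and 50 cells) met the rule for mesangial markers, with 4 of 8 markers and none among its 10 leading genes. It had the highest mural Sparc, at 1518 CPM and 1134 CPM, with 8 of 9 control and 3 of 4 haplodeficient mural-like Postn UMIs, and 9 of 21 and 7 of 7 Tnc UMIs.

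**Figure D3:**
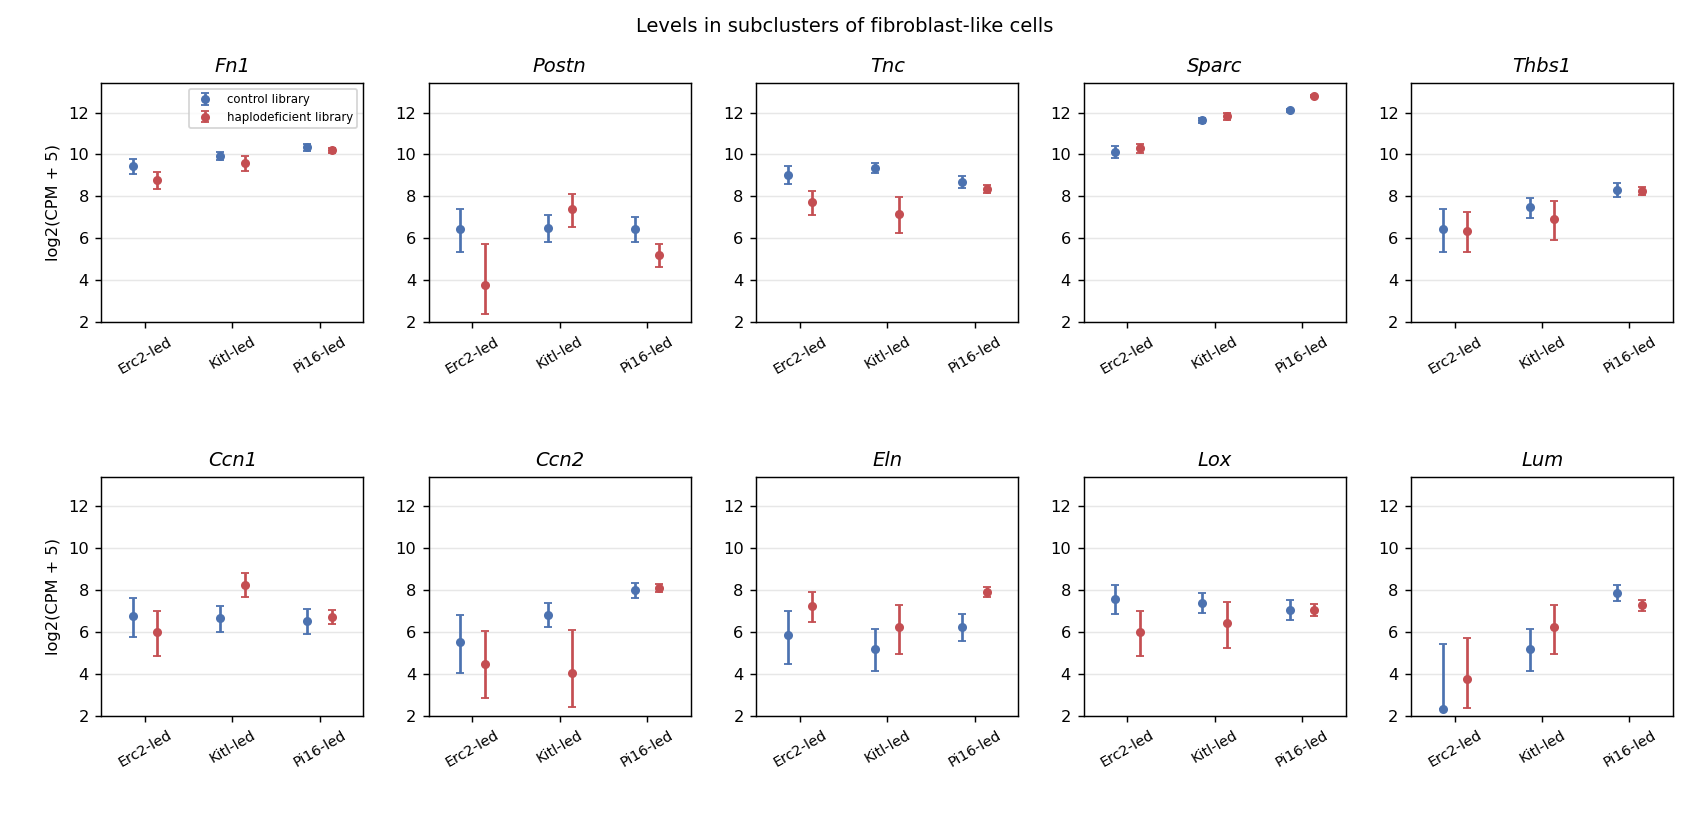
Levels of the 10 genes (panels) in 3 fibroblast-like subclusters on a log2(CPM + 5) axis, with 95% counting intervals, in the control (blue) and haplodeficient (red) library. In each fibroblast-like subcluster the Eln point is higher in red than in blue, and Lum is highest in the Pi16-led subcluster.

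The libraries were next compared within fibroblast-like cells, where all 10 genes were eligible. Elastin was the only one called, 3.98-fold higher (2.70 to 6.06) in the haplodeficient library (log2 ratio 1.89), from 30 and 189 UMIs. The same rule called 2.8% of 3398 eligible genes, and 0.736% as higher. The median log2 ratio was 0.17 over the 10 genes and 0.03 over all eligible genes, and 6 of the 10 were above 0. Eln UMIs were found in 18 of 110 control and 53 of 119 haplodeficient cells, and the thinned share was 2.73% (0.566 to 7.76) and 16.9% (10.7 to 24.96). A single haplodeficient cell held 46 of the 189 UMIs. Without the top cell of each library the ratio was 3.61 (2.33 to 5.82).

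Eln was higher in the haplodeficient library in each subcluster, with a ratio of 3.35 (2.06 to 5.80) in Pi16-led cells, 2.18 (0.606 to 7.58) in Kitl-led and 2.80 (0.991 to 9.70) in Erc2-led cells. Only the first of these intervals lay above 1. With subclusters given the same weights in both libraries the log2 ratio was 1.55. Classing each cell by its own markers, which raised the class to 144 and 201 cells, gave 0.51, which is not a call. In mural-like cells the Eln ratio was 1.08 (0.801 to 1.47), and in endothelial-like cells it was 1.07 (0.947 to 1.22). The endothelial value rested on 1 cell, and without the top cell of each library it was 0.795 (0.693 to 0.912). It also joined clusters that differed, with ratios without their top cells of 1.41 (1.19 to 1.69) in the Stmn2-led and 0.673 (0.511 to 0.891) in the Plvap-led cluster. The Stmn2-led cluster held 57 of 324 control and 76 of 693 haplodeficient endothelial-like cells, and the Plvap-led cluster 177 and 471. The difference between classes was not tested.

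**Figure D4:**
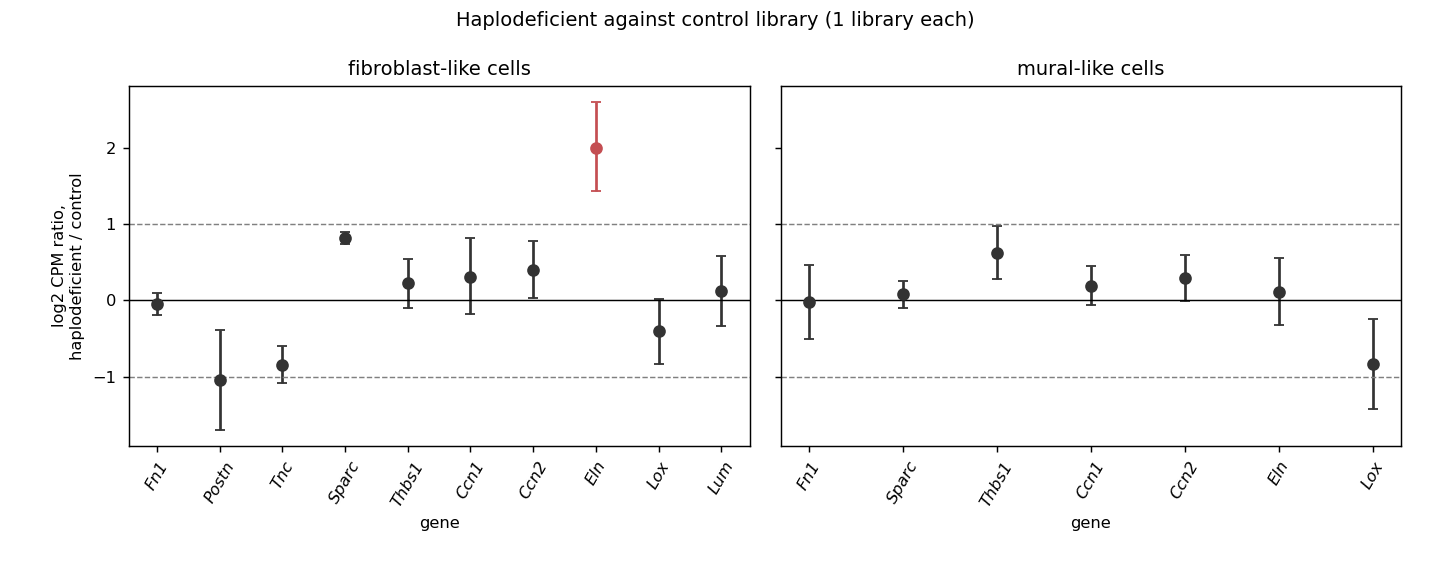
Log2 CPM ratio of the haplodeficient over the control library, with 95% counting intervals, for eligible genes in fibroblast-like (left) and mural-like cells (right). Dashed lines mark log2 ratios of 1 and -1 before the 5 CPM are added, which is why Postn lies past the lower line without a call. Eln (red) is the only point called.

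Over the whole class, the other fibroblast-like differences did not reach the size for a call. Sparc was 1.76-fold higher (1.67 to 1.86) in the haplodeficient library, and within subclusters the ratio was 1.59 (1.49 to 1.70) in Pi16-led, 1.15 (1.01 to 1.32) in Kitl-led and 1.12 (0.869 to 1.46) in Erc2-led cells. Shared subcluster weights lowered its log2 ratio from 0.82 to 0.55. Tnc had a ratio of 0.558 (0.471 to 0.660), and of 0.797 (0.629 to 1.02) in Pi16-led, 0.211 (0.106 to 0.379) in Kitl-led and 0.395 (0.232 to 0.655) in Erc2-led cells. Postn had a ratio of 0.487 (0.308 to 0.763), and of 0.381 in Pi16-led, 1.88 in Kitl-led and 0.103 in Erc2-led cells, the last 2 from few UMIs. Tnc values were thus lower in all 3 subclusters of the haplodeficient library, with an interval including 1 in Pi16-led cells, and Postn values were not. With shared subcluster weights the log2 ratios were -0.94 for Tnc and -0.51 for Postn. With equal weights, chosen after seeing the data, they were -1.23 and -0.30, the first past the size for a call.

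For Fn1 (0.966, 0.872 to 1.07), Thbs1 (1.17, 0.936 to 1.46), Ccn1 (1.24, 0.882 to 1.76), Lox (0.755, 0.562 to 1.02) and Lum (1.09, 0.794 to 1.501) the interval of the ratio included 1. For Ccn2 it did not (1.32, 1.02 to 1.71). The Ccn2 ratio was 1.07 in Pi16-led, 0.106 in Kitl-led and 0.412 in Erc2-led cells. Of these only the Kitl-led interval excluded 1, lying below it, from 24 control UMIs and 1 haplodeficient UMI. With shared subcluster weights the Ccn2 log2 ratio was -0.16, against 0.39 over the whole class. In single subclusters the interval also lay below 1 for Fn1 (0.636, 0.432 to 0.931) and Lox (0.320, 0.113 to 0.803) in Erc2-led cells. It lay below 1 for Lum (0.658, 0.473 to 0.923) in Pi16-led cells and above 1 for Ccn1 (3.15, 1.71 to 5.89) in Kitl-led cells. In the remaining subclusters, and in all of them for Thbs1, the intervals of these genes included 1. Sums of markers of other cells in the fibroblast-like class moved as well, to differing degrees. The 14 proximal tubule markers summed to 452 CPM (control) and 15.4 CPM (haplodeficient). Of these, 14 and 9 markers had a UMI, Slc22a6, Slc22a8, Slc27a2, Slc13a1 and Slc7a13 being at 0 in the haplodeficient library. The 12 endothelial markers summed to 292 and 406 CPM, with Tie1 and Cldn5 at 0 in both libraries and Cdh5 and Kdr at 0 in the control. The 13 mural markers summed to 1761 and 2074 CPM, with Ren1 at 0 in the control. The 12 macrophage markers, all present, summed to 2075 and 1513 CPM. Median mitochondrial shares of these cells were 5.45% and 2.94%. The part of these in the ratios was not tested.

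In mural-like cells 7 genes were eligible and none was called, beside 0.913% of 3287 genes. Their median log2 ratio was 0.11, against 0.07 over all eligible genes. Thbs1 had the largest ratio above 1, at 1.54 (1.21 to 1.97), and it reached 2.00 (1.41 to 2.901) in Txndc11-led cells while it was 0.578 (0.217 to 1.63) in Ifitm1-led cells. Lox had the lowest, at 0.561 (0.372 to 0.846). Sparc (1.06, 0.936 to 1.19), Fn1 (0.982, 0.705 to 1.38) and Eln were near 1. Tnc fell under the minimum level, at 21 and 7 UMIs, with all 7 haplodeficient UMIs in Ifitm1-led cells. The 14 proximal tubule markers summed to 1096 and 59.6 CPM in mural-like cells, with 14 and 11 present and Slc22a6, Slc22a8 and Slc7a13 at 0 in the haplodeficient library. The 12 endothelial markers summed to 249 and 346 CPM, with Cldn5 at 0 in the control, and median mitochondrial shares were 8.99% and 5.09%. The part of these in the ratios was not tested.

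In endothelial-like cells, which carry the Cre, 5 genes were eligible and none was called, beside 1.11% of 3689 genes. Sparc had a ratio of 1.20 (1.15 to 1.25), Fn1 of 0.749 (0.589 to 0.955) and Ccn2 of 0.938 (0.771 to 1.14). The Wt1-led cluster had 7 eligible genes and no call, beside 0.98% of 3775 genes, with Sparc at a ratio of 1.47 (1.39 to 1.56), Fn1 at 1.27 (1.15 to 1.41) and Thbs1 at 0.677 (0.562 to 0.818). Some mural markers also differed between the libraries in the Wt1-led cluster, but not all in the same direction. The 13 mural markers summed to 2624 and 6340 CPM there, with 9 and 11 present and Kcnj8 and Higd1b at 0 in both libraries. Tagln was at 1868 and 4585 CPM and Acta2 at 604 and 1560 CPM. Rgs5 was at 10.5 and 7.91 CPM and Myh11 at 4.76 and 9.23 CPM. The cells led by cell cycle genes were 10 of 94 and 13 of 288. The part of these in the ratios was not tested.

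Sparc ratios above 1 were common outside leukocytes. The ratio was 1.44 (1.36 to 1.53) in injured tubule-like, 1.42 (1.25 to 1.61) in descending thin limb-like and 1.85 (1.25 to 2.79) in Cenpf-led cells. At levels under the minimum it was 3.19 in proximal tubule-like, 3.04 in principal or connecting tubule-like, 2.81 in distal convoluted tubule-like, 2.67 in Slc26a4-led, 2.23 in thick ascending limb-like and 2.03 in Psca-led cells, each with an interval above 1. Sparc in free RNA was itself at 77.3 CPM (control) and 243 CPM (haplodeficient). Free RNA accounted for an estimated 13.1% to 68.3% of the haplodeficient Sparc UMIs in these last 6 populations, but for 0.126% in fibroblast-like and 0.787% in endothelial-like cells. In macrophage-like cells the ratio was 0.809 (0.565 to 1.17).

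Among the 7 tubule-like classes 12 combinations of gene and class were eligible and 1 was called. Ccn1 was at 116 CPM (112 to 119) in control and 349 CPM (326 to 372) in haplodeficient proximal tubule-like cells, a ratio of 3.01 (2.80 to 3.24), beside 2.64% of 2957 genes called in that class. In the other classes the share of all genes called was 0.789% (injured tubule-like), 1.21% (descending thin limb-like), 1.98% (thick ascending limb-like), 1.72% (distal convoluted tubule-like), 2.31% (principal or connecting tubule-like) and 2.35% (intercalated-like). Its log2 ratio was 1.55, with a median over all eligible genes of 0.20. These cells numbered 2977 and 315, with median mitochondrial shares of 23.0% and 6.99%, and at a limit of 25% mitochondrial UMIs the log2 ratio was 0.88 and no longer called. Of the 11 eligible immediate early and dissociation genes 5 were called higher in the same cells, named here after their values were seen: Atf3 (log2 ratio 1.71), Dusp1 (1.38), Jun (1.27), Fos (1.22) and Fosb (1.12). The part of mitochondrial share and dissociation in the Ccn1 ratio was not tested. In injured tubule-like cells Ccn1 was level, at 200 and 208 CPM (ratio 1.04, 0.970 to 1.12).

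In macrophage-like, monocyte-like and neutrophil-like cells and the Retnla-led cluster no member but Thbs1 and Fn1 was eligible. In macrophage-like cells neither was called, beside 0.989% of 2730 genes, with ratios of 0.585 (0.535 to 0.639) for Thbs1 and 0.720 (0.680 to 0.762) for Fn1. Thbs1 was called lower in the Retnla-led cluster (166 and 43.6 CPM, ratio 0.263, 0.196 to 0.349), where 1.59% of 2835 genes were called. It was called higher in monocyte-like cells (111 and 236 CPM, ratio 2.13, 1.44 to 3.27), where 3.88% of 3273 genes were called. In neutrophil-like cells, its highest class, the ratio was 1.09 (0.877 to 1.36), and 4.83% of 2896 genes were called. Lower Thbs1 in the haplodeficient library was not limited to leukocytes. Its ratio was 0.579 (0.518 to 0.647) in descending thin limb-like cells, where it was eligible. At levels under the minimum Thbs1 was at 71.2 and 15.7 CPM in principal or connecting tubule-like cells, and the ratio was 0.281 in Slc26a4-led cells (65.1 and 18.3 CPM), 0.336 in distal convoluted tubule-like, 0.374 in intercalated-like, 0.523 in thick ascending limb-like, 0.503 in Psca-led and 0.215 in Cenpf-led cells, each with an interval below 1. In injured tubule-like cells the interval included 1 (1.19, 0.829 to 1.71). Fn1 ratios were 0.838 (0.771 to 0.911) in the Retnla-led cluster and 1.03 (0.747 to 1.46) in monocyte-like cells.

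Other genes of these families were compared between the libraries in fibroblast-like cells. Of 15 eligible elastic fibre genes none was called and 12 had a log2 ratio above 0 (median 0.10), with Ltbp2 (130 and 221 CPM) and Mfap5 (266 and 160 CPM) the farthest from 1 in each direction. Smoc2, a Sparc relative, was the only listed gene called, at 315 CPM in the control and 117 CPM in the haplodeficient library (ratio 0.373, 0.291 to 0.477). Ccn4 was at 41.7 and 86.7 CPM and Thbs2 at 66.0 and 131 CPM. Of 9 eligible YAP and TEAD targets 1 had a log2 ratio above 0 (median -0.39) and none was called, with Gadd45a at 103 and 53.8 CPM and Tgfb2 at 85.2 and 48.3 CPM. The 4 eligible proteoglycans all lay between log2 ratios of 0.09 and 0.22, and the 8 receptors had a median of 0.13. In mural-like cells no listed gene was called. There the 13 eligible immediate early genes had a median log2 ratio of 0.25, led by Atf3 (1799 and 2950 CPM) and Fos (4991 and 7702 CPM).

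Genes with the most similar pattern over 20 classes in 2 libraries (40 values of log2(CPM + 5), Pearson's r) were listed without a test, since values of 1 library share its depth and free RNA. Lum was nearest to Mfap4 (r = 0.999), C7 (0.997) and Dpt (0.996), the last being one of the markers that define the fibroblast-like class. Lox was nearest to Nkd1 (0.983), Adgrb3 (0.977) and Adamts12 (0.977), and Postn to Smoc2 (0.940). Tnc was nearest to Cdh11 (0.957), then to 8030451A03Rik (0.932), a transcript annotated on the opposite strand across Tnc, so that reads of the 2 may not be told apart where counting ignores strand. Sparc was nearest to Meis2 (0.951), Nid1 (0.951) and Adamts4 (0.934), Eln to Npr3 (0.953) and Tmem47 (0.951), Fn1 to Axl (0.901), Ccn2 to Cavin3 (0.906) and Ccn1 to Pkia (0.945). Thbs1 had the weakest nearest gene, Cebpb (0.817). Between members the closest pair was Sparc and Eln (0.868), followed by Eln and Lox (0.848). Fn1, Thbs1, Ccn2, Eln and Lox also overlap annotated genes on the other strand, and the strand setting of the counting was not given in the sources used here.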

How the data were processed

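The deposited values were whole-number UMI counts for all barcodes. Per the file headers they came from Cell Ranger 4, and the submitters' processing notes name the mm10 build. Coordinates are those of GENCODE M21 (GRCm38), which held 32158 of the 32285 gene identifiers (99.6%). Cells were filtered as stated. Likely doublets were the highest Scrublet scores (scanpy 1.11.5) at 0.8% per 1000 cells. Both libraries were clustered together on 2000 variable genes, 30 components and 15 neighbours (leidenalg 0.10.2, resolution 1, 36 clusters), leaving out the 10 genes, all listed genes and mitochondrial genes. A class name needed 3 or more markers of its list, each in 10% of cells and at 2-fold over other cells, a scoring rule set after the data were seen. A name was withheld where leading genes or a second class went against it, so class names here are rebuilt and not the authors'.

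UMIs were summed per class and library and scaled to CPM, with exact Poisson intervals. CPM ratios have conditional binomial and shares Clopper-Pearson intervals. A gene was eligible when its mean reached 50 CPM and its sum 30 UMIs. A call needed an absolute log2 ratio of at least 1, after adding 5 CPM, and separate intervals. The free RNA profile came from barcodes with 1 to 100 UMIs. Named genes were all 10 members, at most 4 per list with the largest ratios, and the 3 most similar genes per member, and further genes named beside small counts were chosen after their values were seen. The members and lists were chosen with earlier results of these data known. The call rule was tried on simulated counts drawn with counting error only, with no spread between cells or animals. That simulation therefore cannot show how often calls are wrong in these data. UMIs of 3′ ends do not scale with gene length, and levels were compared between classes and not between genes.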

Additional observations from a re-analysis of the deposited data

Results flagged for a closer look

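Thbs1 had opposite differences between the libraries in 2 populations, a contrast that was not tested. In monocyte-like cells it was at 111 CPM (73.1 to 161) in the control, from 27 UMIs in 54 cells, and at 236 CPM (215 to 259) in the haplodeficient library, a log2 ratio of 1.06. In the Retnla-led cluster it was at 166 CPM (140 to 195) and 43.6 CPM (34.3 to 54.6), a log2 ratio of -1.81. In macrophage-like cells the ratio was 0.585 (0.535 to 0.639), and in neutrophil-like cells, its highest class, 1.09 (0.877 to 1.36). Ratios below 1 were also found outside leukocytes, among them 0.336 in distal convoluted tubule-like and 0.579 in descending thin limb-like cells. The monocyte-like value kept its direction but was not called at a mitochondrial limit of 25% (log2 ratio 0.85), with doublets kept (0.66), when each cell was classed by its own markers (0.20) or with the 10 genes allowed in clustering (0.96).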

How the results depend on the processing

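No paired analysis was possible because there was 1 library per group. Of 153 summary counts recomputed under an alternative, 131 stayed within 1.5 times the reported count. The members called between libraries in fibroblast-like cells numbered 0 rather than 1 when each cell was classed by its own markers, 2 with 1 CPM added and 2 with equal subcluster weights, the last alternative chosen after seeing the data. In mural-like cells they numbered 2 rather than 0 with cells classed singly and 1 with no minimum level. Gene and class pairs in tubule-like cells numbered 2 rather than 1 at a minimum of 1000 UMIs and with the 10 genes in clustering, 3 at resolution 2 and with cells classed singly, and 8 at a minimum of 10 CPM or none. Genes called in all numbered 58 (cells classed singly), 209 (10 CPM) and 283 (no minimum) rather than 95 in fibroblast-like cells. In mural-like cells they numbered 94 (doublets kept), 189 (cells classed singly), 122 (10 CPM), 208 (no minimum) and 77 (equal weights) rather than 30. With cells classed singly 2 members rather than 4 were higher in fibroblast-like than mural-like cells, and 0 rather than 1 lower. Shares without thinning gave 6 members rather than 3. The causes were not tested. No called value reversed direction, and values without a call were not scored for a change of direction. Among these, the fibroblast-like log2 ratios of Ccn2, Thbs1 and Lum were above 0 as reported. With shared subcluster weights they were -0.16, -0.13 and -0.38. Control sums of 30, 48 and 65 UMIs for Eln, Postn and Lum in fibroblast-like cells limit the precision, and animals within a library were not separated here. Without the top cell of each library the Eln ratio in endothelial-like cells was 0.795 rather than 1.07, an alternative chosen after seeing the data.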
